A study of Mus musculus with 29 samples.

Results

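The 10 genes described here sense or clear nucleic acids in the cytosol. Cgas, Sting1, Tbk1 and Irf3 form the DNA sensing line from sensor to transcription factor. Trex1, Samhd1, the 3 subunits of ribonuclease H2 (Rnaseh2a, Rnaseh2b, Rnaseh2c) and Adar remove, limit or edit nucleic acids. They were listed by function and matched by symbol to the 56748 Ensembl genes of the counts table, and all 10 were found there. More than 10 counts in more than 10 of 28 samples were required for testing, which 8 of the 10 genes passed, as did 12353 genes in all. Cgas and Trex1 did not pass.

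RNA came from the aortic arch, flushed with saline at death, of C57BL6J and FVB F1 hybrid mice, with 1 library per mouse. Ercc1Δ/− mice carry a null and a hypomorphic Ercc1 allele, the second giving a truncated protein, in every cell, so the repair defect is not limited to the vessel. WT littermates were the controls. The 6 groups were WT and Ercc1Δ/− mice of 6 weeks fed ad libitum (AL, 5 mice each), of 22 weeks fed AL (4 mice each) and of 22 weeks on dietary restriction (DR, 5 mice each), with food reduced by 30%. Both sexes were present, 17 males and 11 females. Replicate 018 was the only female of the 4 AL-fed WT mice of 22 weeks. Another AL-fed WT mouse of 22 weeks (sample 003, 400410 counts) was left out, and its values are given at the end.

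Cyclic GMP-AMP synthase, the product of Cgas, binds DNA outside its usual compartments and makes a cyclic dinucleotide. STING (Sting1), a protein of the endoplasmic reticulum, binds that messenger and recruits the kinase TBK1, which phosphorylates IRF3, the factor that switches on type I interferon. The clearing enzymes keep this line silent: TREX1 digests DNA, SAMHD1 breaks down deoxynucleotides, ribonuclease H2 removes ribonucleotides from DNA, and ADAR edits double-stranded RNA so that RNA sensors ignore it. Inherited loss of any of these enzymes is known to cause an interferon-driven disease, Aicardi-Goutières syndrome.

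In aortas of 22 weeks, Samhd1 was higher in Ercc1Δ/− than in WT mice on both diets, 1.48-fold on AL and 1.52-fold on DR. The AL difference no longer passed (edgeR adjusted p = 0.0727 to 0.114) when counts were thinned to equal totals or when WT replicate 018 or Ercc1Δ/− replicate 013 was left out, and every Ercc1Δ/− library of 22 weeks was shallower than every WT library of its diet. Adar was 1.36-fold higher on DR. These are the only 3 results in which 1 of the 8 tested genes passed the test, across 7 pairs of groups and 2 interactions. Sting1, Tbk1, Irf3 and the 3 ribonuclease H2 subunits passed in none of them. Between genotypes at 22 weeks, 12.0% of all tested genes passed on AL and 13.0% on DR, 5.87% and 5.93% as higher. The share of 1 in 8 on AL is near that background.

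Counts on genes were 955589 to 9227924 per sample in WT mice of 6 weeks and 2299482 to 3979441 in Ercc1Δ/− mice of that age. At 22 weeks on AL they were 3903589 to 9616382 in WT and 1294980 to 3855444 in Ercc1Δ/− mice, and on DR 2660422 to 6124471 and 921167 to 2572523. Replicate 016 of the DR-fed Ercc1Δ/− mice stood apart in leukocyte markers: its 6 pan-leukocyte markers summed to 1705 normalized counts, the highest of the 28 samples, where the other 4 mice of its group had 212 to 312. Itgb2 (815) and Laptm5 (662) made most of this sum. Ptprc, Cd53 and Rac2 were also highest of the group in this mouse, and Coro1a was not. The genotype results on DR are also given without replicate 016 where it bears on them. Ercc1 itself checked the labels of the groups: its mean normalized count was 101 ± 33.6 (SD, n = 5) in WT and 41.8 ± 9.17 (n = 5) in Ercc1Δ/− mice of 6 weeks. Single mice overlapped at that age, the lowest WT value being 52.2 and the highest Ercc1Δ/− value 56.3. At 22 weeks the genotypes did not overlap on either diet. The log2 fold change of Ercc1 was -1.41 (SE 0.18, edgeR adjusted p = 3.36e-04) at 6 weeks, and -0.96 on AL and -1.01 on DR at 22 weeks. Normalized counts are counts divided by the TMM-scaled library and multiplied by 3703241, the mean total of the 28 samples.

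The promoter windows of Samhd1 and Adar, the genes that passed, are printed so that their start regions can be read beside the values. They run from 250 bases before to 50 after an annotated start, come from RefSeq (GRCm38.p6, while the counts use GRCm39), and are written 5′ to 3′ on the strand of the gene. Windows were found for 8 of the 10 genes, and not for Sting1 and Rnaseh2b. Capitals mark the bases from the annotated start on. Adar has 3 windows, of which the first along the chromosome is shown.

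Samhd1, chr2:157135047-157135346, minus strand: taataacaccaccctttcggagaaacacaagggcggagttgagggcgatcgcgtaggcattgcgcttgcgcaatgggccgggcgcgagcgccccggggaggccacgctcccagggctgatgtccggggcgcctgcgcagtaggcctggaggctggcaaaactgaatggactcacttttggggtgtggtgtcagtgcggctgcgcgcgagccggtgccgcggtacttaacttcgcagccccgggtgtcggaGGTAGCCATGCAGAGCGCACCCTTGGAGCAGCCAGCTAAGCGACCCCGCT

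Adar, chr3:89714772-89715071, plus strand: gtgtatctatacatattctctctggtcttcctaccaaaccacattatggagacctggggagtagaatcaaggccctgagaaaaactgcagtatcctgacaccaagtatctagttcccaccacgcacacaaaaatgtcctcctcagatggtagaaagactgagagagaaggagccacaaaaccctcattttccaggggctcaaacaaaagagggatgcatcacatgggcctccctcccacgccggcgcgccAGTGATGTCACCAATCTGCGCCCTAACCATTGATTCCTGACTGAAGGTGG

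A form of the interferon-stimulated response element, 2 GAAA boxes with 2 bases between them (TTTC boxes when read from the other strand), was in none of the windows of the 8 genes and in 3.44% of all windows. The last of the Adar windows along the chromosome, which is not printed, holds 2 such boxes after its start. They lie closer together than this form requires. The later box is followed, at the required 2 bases, by GAAC in place of GAAA. Neither pair was therefore counted. How often boxes lie that close, or such a near form occurs, in all windows was not tested. That the counted form is not in a window is a description of the window only.

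The study's methods speak of counting reads over entire gene bodies, so introns may contribute to the counts and exon length need not be the matching divisor. The order of levels between genes is therefore approximate. Per kilobase of merged exons, the mean normalized count over the 28 samples ordered the genes as Irf3 (87.7 ± 11.1, SD), Samhd1 (52.6 ± 13.0), Rnaseh2c (33.6 ± 6.28), Tbk1 (29.3 ± 2.95), Adar (24.7 ± 5.18), Rnaseh2a (18.2 ± 4.17), Sting1 (7.68 ± 3.08), Rnaseh2b (5.00 ± 1.19) and Cgas (1.51 ± 0.765). The mean ± SD ranges of neighbours met from Samhd1 down to Rnaseh2a and between Sting1 and Rnaseh2b. Irf3 stood above Samhd1, Rnaseh2a above Sting1, and Rnaseh2b above Cgas without meeting. The median raw count per sample, which sets how precisely a gene is measured, was 6 for the sensor Cgas, 19.5 for its adaptor Sting1, 152.5 for the kinase Tbk1 and 268 for Irf3. Genes annotated on the other strand overlap Cgas, Tbk1 and Irf3. Part of their counts may belong to those genes, or reads in the overlaps may have been set aside. The coefficient of variation over the samples was lowest for Tbk1 (10.1%) and Irf3 (12.7%), and highest for Sting1 (40.2%) and Cgas (50.5%).

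Cgas (ENSMUSG00000032344, GRCm39 chromosome 9, 78337802 to 78350535, minus strand) had 0 to 19 raw counts per sample, with a median of 6. Its raw counts were 12, 8, 4, 0 and 6 in WT mice of 6 weeks and 6, 5, 6, 7 and 5 in Ercc1Δ/− mice of 6 weeks. At 22 weeks on AL they were 9, 13, 18 and 5 in WT and 19, 3, 9 and 3 in Ercc1Δ/− mice, and on DR 10, 6, 7, 9 and 6 against 7, 1, 4, 5 and 9. Summed over the mice of a group, Cgas took 3.42 CPM, its counts scaled to a common library total (exact 95% Poisson interval 2.37 to 4.78), in AL-fed Ercc1Δ/− and 1.73 (1.27 to 2.32) in AL-fed WT mice of 22 weeks. One Ercc1Δ/− library (replicate 005) gave 19 of those 34 counts, and without it the value was 2.28 (1.28 to 3.76), which meets the WT interval. On DR the sums were 3.08 (2.01 to 4.52) in Ercc1Δ/− and 1.62 (1.15 to 2.23) in WT mice. The intervals cover counting error only, and a difference in Cgas was not detectable at this depth by the test over samples: without the filter on low counts its log2 fold change was 0.86 (SE 0.43, edgeR adjusted p = 0.31) on AL and 0.77 (SE 0.45, adjusted p = 0.441) on DR.

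Sting1 (ENSMUSG00000024349, chromosome 18, 35866732 to 35873607, minus strand) was itself low, with 4 to 68 raw counts and 10 or fewer in 8 of the 28 samples. At 22 weeks on AL its normalized counts were 10.7, 31.3, 17.1 and 30.8 in WT mice, from 11, 68, 45 and 36 raw counts. In Ercc1Δ/− mice they were 32.6, 27.9, 48.7 and 49.8, from 31, 10, 54 and 20 raw counts. A pair of the WT values lay within the Ercc1Δ/− range, so the groups overlapped. The log2 fold change was 0.70 (SE 0.30, edgeR adjusted p = 0.138), and the two-sided exact permutation test of the means gave p = 0.114, where 0.0286 is the smallest that 4 against 4 mice allow.

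At 6 weeks Sting1 measured 17.1, 23.4, 11.4, 32.1 and 13.1 in WT and 18.5, 21.4, 16.2, 34.9 and 26.6 in Ercc1Δ/− mice, with nearly the same range (log2 fold change 0.35, SE 0.31, edgeR adjusted p = 0.717). From 6 to 22 weeks on AL the Ercc1Δ/− mean went from 23.5 ± 7.44 (n = 5) to 39.7 ± 11.1 (n = 4), a log2 change of 0.70 (SE 0.31, edgeR adjusted p = 0.228). On DR the Ercc1Δ/− values were 21.2, 31.5, 17.1, 19.2 and 31.4, and the WT values 23.4, 23.4, 21.8, 14.0 and 19.2. The diet difference in Ercc1Δ/− mice was -0.64 on the log2 scale (SE 0.31, edgeR adjusted p = 0.337), with the AL and DR ranges meeting between 27.9 and 31.5. The 95% interval of the genotype difference ran from 0.11 to 1.29 on AL and from -0.36 to 0.84 on DR on the log2 scale, and the DR interval holds 0 as well as values above the AL estimate. Single mice decided the smaller of these values: at 6 weeks the Sting1 difference was 0.14 without WT replicate 024 and 0.58 without WT replicate 001. Between genotypes on DR it was 0.24 with all mice, 0.14 without Ercc1Δ/− replicate 022 and 0.38 without WT replicate 007. At 22 weeks on AL it ran from 0.50 to 0.91 with 1 mouse left out. None of these passed the test.

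**Figure D1:**
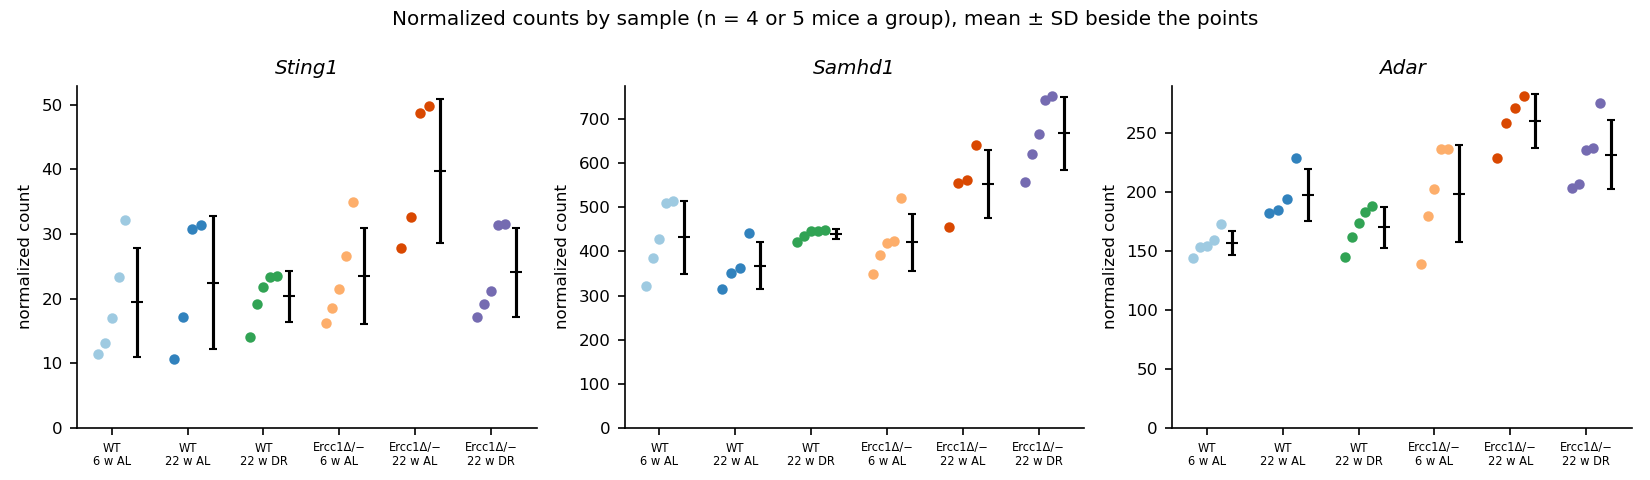
Normalized counts (vertical axes, from 0) of Sting1, Samhd1 and Adar in each mouse of the 6 groups, with the mean ± SD beside the points. In Samhd1 both Ercc1Δ/− groups of 22 weeks lie above the WT group of the same diet (AL 455 to 642 against 315 to 442), while the Sting1 groups overlap.

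Tbk1 (ENSMUSG00000020115, chromosome 10) and Irf3 (ENSMUSG00000003184, chromosome 7) were measured with 35 to 427 and 66 to 805 raw counts. On the other strand Gm46204 and Gm68077 overlap Tbk1, and Bcl2l12 and Scaf1 overlap Irf3, and whether the counting used strand is not given in the sources used here. Group means of Tbk1 lay between 156 ± 18.4 (n = 4) in AL-fed WT and 177 ± 20.8 (n = 5) in DR-fed Ercc1Δ/− mice of 22 weeks. Those of Irf3 lay between 285 ± 58.1 (n = 5) in WT mice of 6 weeks and 327 ± 16.0 (n = 5) in DR-fed WT mice. Neither gene reached an unadjusted p under 0.05 in any of the 9 comparisons. Irf3 was the only one of the pair with groups that did not overlap, in DR-fed against AL-fed WT mice (313 to 350 against 276 to 312, exact permutation p = 0.00794, the smallest possible), where the edgeR fit gave an adjusted p of 0.562 and 5.14% of all tested genes had no overlap and the permutation p became 0.198 with sample 003 added. The kinase and the transcription factor are controlled by phosphorylation, which RNA counts do not measure.

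Trex1 (ENSMUSG00000049734, chromosome 9, 108887001 to 108888802, minus strand) was listed at 0 in all samples, sample 003 included. The same strand holds Atrip (ENSMUSG00000025646, 108887001 to 108903228), which encodes the partner of the checkpoint kinase ATR. All of Trex1 lies within Atrip, and 100% of the exonic bases of Trex1 are also annotated as exons of Atrip. A read there falls on both genes, and HTSeq in its default mode sets such reads aside as ambiguous. The mode used is not given in the sources used here, and 1.40% to 1.82% of the reads of a sample were ambiguous. Of the 139 protein-coding genes of the table whose exonic bases are all shared in this way, 128 (92.1%) had 0 counts over the 28 samples, against 20.9% of the 20560 genes that share none. These positions are from a later annotation than the counts, and the cause of the 0 was not tested. The level of Trex1 cannot be read from these counts. Atrip had 13 to 207 raw counts per sample, and its log2 fold change between genotypes at 22 weeks was 0.016 (SE 0.19) on AL and -0.080 (SE 0.16) on DR.

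**Figure D2:**
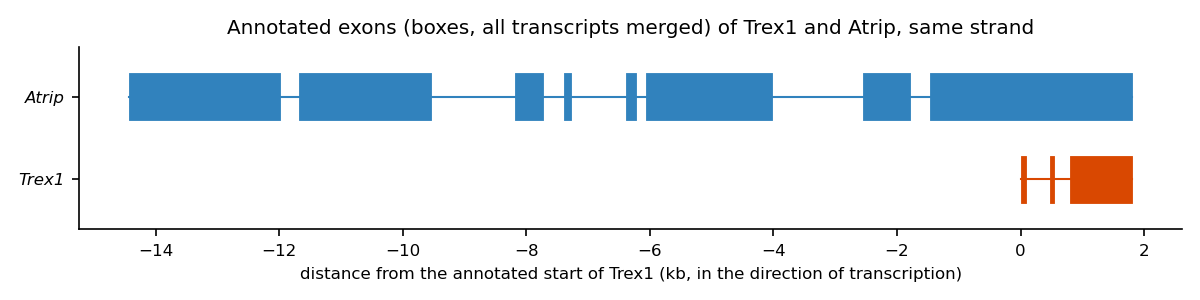
Annotated exons of Atrip and Trex1 in kilobases from the start of Trex1, in the direction of transcription (GENCODE M39, all transcripts of a gene merged, both on the minus strand). The 3 exon blocks of Trex1, the last from 0.806 to 1.80 kb, all lie within the last exon block of Atrip.

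Samhd1 (ENSMUSG00000027639, chromosome 2, 156939453 to 156977187, minus strand; no annotated gene overlaps it) was the best measured clearing enzyme, with 128 to 955 raw counts. At 22 weeks on AL its normalized counts were 442, 351, 363 and 315 in WT and 555, 642, 561 and 455 in Ercc1Δ/− mice. Every Ercc1Δ/− mouse lay above every WT mouse, with the closest pair 442 and 455. This made a log2 fold change of 0.56 (SE 0.15, edgeR adjusted p = 0.0146), and the exact permutation p was 0.0286, the smallest possible. Of the 8 tested genes this was the 1 called here, and of all tested genes 12.0% were called, 5.87% as higher, so a share of 1 in 8 is near the background. Samhd1 was also the 1 of 8 without overlap, against 18.6% of all tested genes.

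On DR the Samhd1 values were 420.2, 446, 434, 448 and 446 in WT and 753, 665, 621, 743.5 and 558 in Ercc1Δ/− mice. The WT values were close together and all Ercc1Δ/− values lay above them, the nearest being 558 and 448. The genotype difference was 0.60 on the log2 scale (SE 0.10, edgeR adjusted p = 2.13e-04), and 0.56 (SE 0.11, adjusted p = 9.92e-04) without Ercc1Δ/− replicate 016. At 6 weeks the groups shared their range, with 386, 321, 428, 514 and 509 in WT and 348, 418, 424, 522 and 391 in Ercc1Δ/− mice, and the log2 fold change was -0.015 (SE 0.13, edgeR adjusted p = 0.981). The change of the genotype difference from 6 to 22 weeks on AL was 0.58 (SE 0.20, unadjusted p = 0.0082 in edgeR), which did not pass the correction (adjusted p = 0.226).

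With age on AL, Samhd1 differed by 0.38 on the log2 scale in Ercc1Δ/− mice (SE 0.14, edgeR adjusted p = 0.136) and by -0.20 in WT mice (SE 0.14, adjusted p = 0.775). DR gave nearly equal differences from AL in WT (0.26, SE 0.10, edgeR adjusted p = 0.259) and in Ercc1Δ/− mice (0.26, SE 0.11, adjusted p = 0.232), none of which passed. The interaction of genotype and diet was 0.0017 with a 95% interval from -0.30 to 0.30. When all libraries were thinned to 921167 counts, the depth of the shallowest, the AL difference was 0.44 and no longer passed (edgeR adjusted p = 0.114), while on DR the difference was 0.52 and passed (adjusted p = 0.0380). The thinning was a single random draw. Over all genes it took the calls between genotypes from 1486 to 743 on AL and from 1601 to 989 on DR. The AL call was also lost without WT replicate 018 (0.50, edgeR adjusted p = 0.0799) or Ercc1Δ/− replicate 013 (0.45, adjusted p = 0.0727), and the DR call was kept without any 1 of the samples. Without replicate 018, the only female of its group, the AL-fed WT mice of 22 weeks were all male.

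The ribonuclease H2 subunits were less well measured, with 9 to 180 raw counts for Rnaseh2a (the catalytic subunit, ENSMUSG00000052926, chromosome 8), 14 to 156 for Rnaseh2b (ENSMUSG00000021932, chromosome 14) and 18 to 237 for Rnaseh2c (ENSMUSG00000024925, chromosome 19). Genes annotated on the other strand overlap all 3 of them, and Gm49661 shares 9.22% of the exonic bases of Rnaseh2a on its own strand. Group means were 60.7 to 80.5 for Rnaseh2a, 43.3 to 64.2 for Rnaseh2b and 71.4 to 92.9 for Rnaseh2c. The lowest unadjusted p of the 3 was that of Rnaseh2b with age in Ercc1Δ/− mice, where the values were 65.3, 57.7, 56.7, 61.9 and 48.5 at 6 weeks and 46.2, 47.4, 32.5 and 47.3 at 22 weeks on AL. These groups did not overlap (exact permutation p = 0.0159), as was so for 6.78% of all tested genes, but the log2 change of -0.50 (SE 0.24) did not pass the correction in edgeR (adjusted p = 0.277). Rnaseh2a and Rnaseh2c had no unadjusted p under 0.05 in the fit. Rnaseh2a on DR measured 77.6, 90.5, 70.5, 98.3 and 65.4 in Ercc1Δ/− and 62.1, 69.6, 62.4, 68.7 and 52.7 in WT mice, with overlapping ranges (exact permutation p = 0.0317, edgeR adjusted p = 0.282). In the same comparison the means of the accessory subunits were 49.5 ± 9.63 against 54.5 ± 6.00 for Rnaseh2b and 71.4 ± 3.16 against 84.5 ± 16.7 for Rnaseh2c (n = 5 each), which did not pass either.

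**Figure D3:**
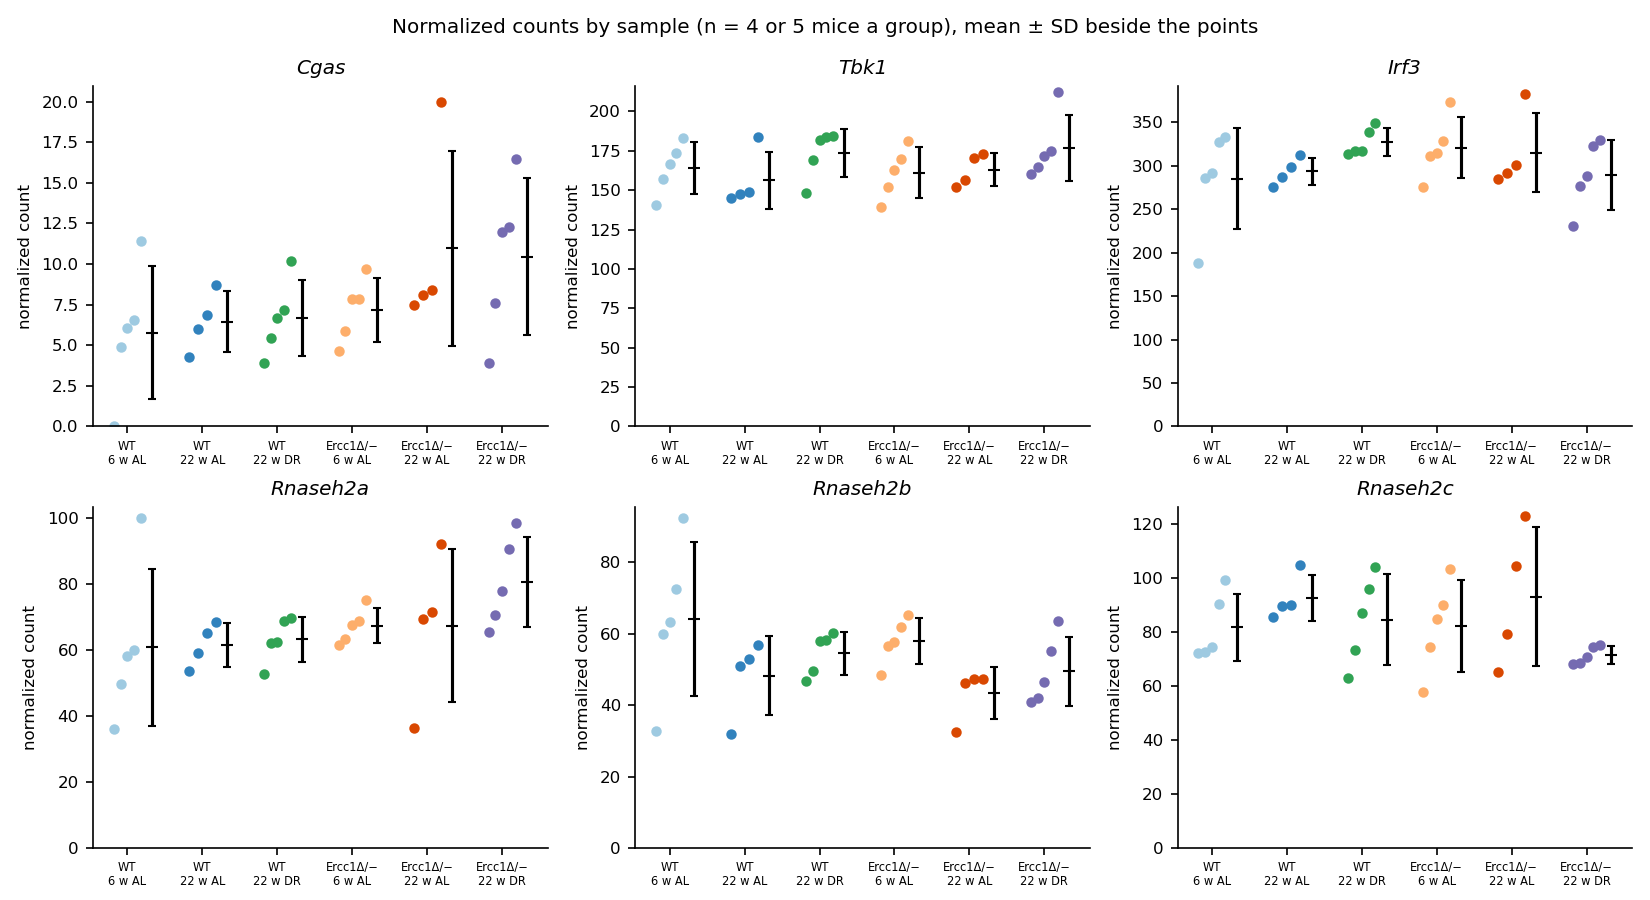
Normalized counts (vertical axes, from 0) of Cgas, Tbk1, Irf3 and the 3 ribonuclease H2 subunits in each mouse of the 6 groups, with the mean ± SD beside the points. The groups overlap in nearly every panel, and the high Cgas point of AL-fed Ercc1Δ/− mice rests on 19 raw counts.

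Adar (ENSMUSG00000027951, chromosome 3, 89622329 to 89660753, plus strand) had 36 to 511 raw counts. On DR its normalized counts were 162, 183, 145, 188.5 and 174 in WT and 207, 236, 204, 237 and 275 in Ercc1Δ/− mice. All Ercc1Δ/− mice lay above all WT mice. On the log2 scale the difference was 0.44 (SE 0.10, edgeR adjusted p = 0.00534), and the exact permutation p was 0.00794, the smallest possible. Without Ercc1Δ/− replicate 016 the Adar difference was 0.42 (SE 0.11, edgeR adjusted p = 0.0166). Samhd1 and Adar made 2 of 8 tested genes called on DR, both higher, where 13.0% of all tested genes were called and 5.93% as higher. The same 2 genes were those without overlap on DR, against 8.27% of all tested genes.

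At 22 weeks on AL, Adar measured 185, 229, 194 and 182 in WT and 271, 282, 229 and 259 in Ercc1Δ/− mice. The groups met at 1 point, the highest WT value being 229.3 and the lowest Ercc1Δ/− value 229.0. This log2 fold change of 0.35 (SE 0.13) did not pass the correction in edgeR (adjusted p = 0.0847), and thinned to 921167 counts it was 0.55 (adjusted p = 0.0564). At 6 weeks Adar measured 173, 159, 154, 145 and 154 in WT and 179, 236, 236.5, 202 and 139 in Ercc1Δ/− mice, where 4 of 5 Ercc1Δ/− values lay above the WT range and 1 below it. There the difference was 0.33 (SE 0.12, edgeR adjusted p = 0.209).

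Adar differed in the same direction with age in both genotypes, by 0.34 (SE 0.12, edgeR adjusted p = 0.385) in WT and 0.36 (SE 0.13, adjusted p = 0.114) in Ercc1Δ/− mice. In WT mice the ages did not overlap, 145 to 173 against 182 to 229 (exact permutation p = 0.00794, 3.85% of all tested genes without overlap), and with sample 003 added, at 98.6, the p became 0.405. The diet differences were -0.23 (SE 0.10, edgeR adjusted p = 0.334) in WT and -0.12 (SE 0.11, adjusted p = 0.658) in Ercc1Δ/− mice. The genotype difference of Adar changed by 0.020 with age (SE 0.18, edgeR adjusted p = 0.981) and by 0.11 with diet (SE 0.15, adjusted p = 0.904). Thinned to 921167 counts a sample, the genotype difference on DR was 0.50 (adjusted p = 0.0486 in edgeR). Genes on the other strand overlap Adar, so part of its counts may belong to them, or reads there may have been set aside as ambiguous.

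**Figure D4:**
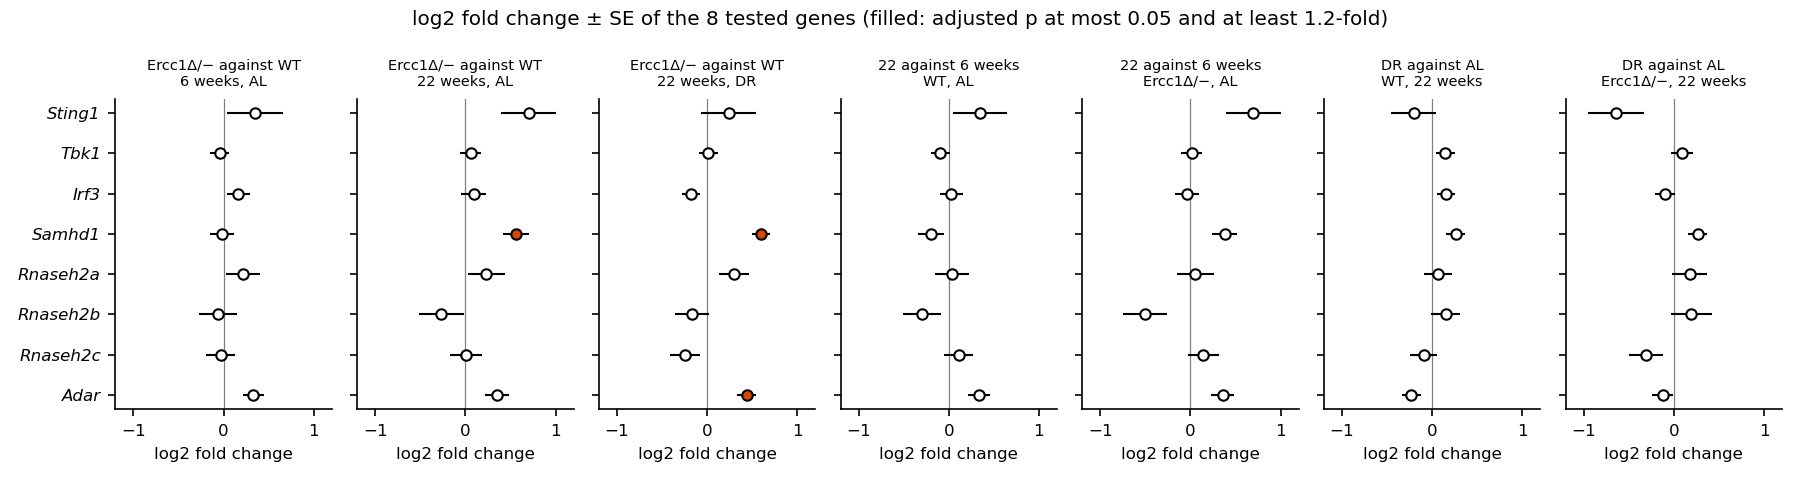
The log2 fold change ± SE of the 8 tested genes in the 7 pairs of groups, with positive values where the first-named group is higher. Filled points passed the test, Samhd1 in Ercc1Δ/− against WT mice of 22 weeks on AL (0.56) and on DR (0.60) and Adar on DR (0.44).

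Counted over the whole set, 0 of the 8 tested genes were called between genotypes at 6 weeks, where 1.71% of all tested genes were called. Neither age comparison called any (0.235% of all genes in WT and 4.66% in Ercc1Δ/− mice), nor did the diet comparisons (1.3% in WT and 1.64% in Ercc1Δ/− mice), the interaction with age (0.842%) or that with diet (0.0971%). At an unadjusted p under 0.05 in edgeR, the genotype comparisons had 1 of 8 at 6 weeks (12.8% of all tested genes), 3 of 8 at 22 weeks on AL (26.0%) and 2 of 8 on DR (26.1%). With diet there were 2 of 8 in WT (12.8%) and 1 of 8 in Ercc1Δ/− mice (15.0%), and the interactions had 1 of 8 with age (11.4%) and 0 of 8 with diet (8.72%). With age there was 1 of 8 in WT mice (8.65%), while Ercc1Δ/− mice had the most, 4 of 8 where all tested genes had 17.8%. These 4 were Sting1, Samhd1 and Adar with higher and Rnaseh2b with lower values at 22 weeks. DESeq2 also called 0 of the 8 in the 7 comparisons in which edgeR called 0. The median log2 fold change of the 8 was 0.16 between genotypes at 22 weeks on AL and 0.13 on DR, beside 0.027 and 0.0037 over all tested genes.

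The further genes of the pathway were taken from 5 lists. Of 27 tested DNA sensors and STING regulators, 5 rose in Ercc1Δ/− mice at 22 weeks on AL and 0 fell, and 4 rose and 0 fell on DR, as also without replicate 016. Of all tested genes 12.0% were called on AL, 5.87% as higher, and 13.0% on DR, 5.93% as higher. The list's calls included Ifi205 and Ifi204, DNA-binding proteins of the interferon-inducible p200 family, with log2 fold changes of 1.97 (SE 0.34) and 1.90 (SE 0.33) on AL and 1.64 (SE 0.29) and 1.29 (SE 0.31) on DR. Unc93b1, which carries nucleic acid-sensing Toll-like receptors to endosomes, was 0.98 (SE 0.22) higher on AL and 1.00 (SE 0.21) higher on DR. The list also called Ifi203 (1.49, SE 0.35) and the lysosomal protease Ctsa (0.30, SE 0.089) on AL, and Trim56 (0.44, SE 0.11), a ubiquitin ligase of the STING pathway, on DR. The p200 genes are close copies of one another, so reads may be split among them and single values are uncertain. The list's median was 0.071 on AL and 0.13 on DR, beside 0.027 and 0.0037 over all tested genes.

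Of 14 tested RNA sensors and their partners, 8 rose and 1 fell between genotypes at 22 weeks on AL, and 9 rose and 1 fell on DR (9 and 0 without replicate 016), where 12.0% and 13.0% of all tested genes were called. Oas2, which makes the activator of ribonuclease L, had log2 fold changes of 2.50 (SE 0.38) and 2.85 (SE 0.32). Rigi, the RIG-I helicase, rose by 0.82 (SE 0.14) on AL and 0.79 (SE 0.15) on DR, and its ligase Trim25 by 0.96 (SE 0.18) and 1.16 (SE 0.22). Dhx58 (1.71, SE 0.34) and Oasl2 (1.98, SE 0.39) were among those higher on AL, and Oas1b (1.86, SE 0.32), Oasl2 (2.11, SE 0.33) and the RNA-activated kinase Eif2ak2 (0.87, SE 0.18) on DR. Traf3, an adaptor, was the gene that fell (-0.61, SE 0.13 on AL). At 6 weeks Oas2 (2.08, SE 0.43) and Rigi (0.66, SE 0.13) were the 2 called, where 1.71% of all tested genes were. The median was 0.87 on AL and 0.83 on DR. With diet 0 of 14 were called in either genotype by edgeR, and at an unadjusted p under 0.05 there were 6 in WT (12.8% of all tested genes) and 1 in Ercc1Δ/− mice (15.0%).

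Of 27 tested genes of the interferon and NF-kB axis below STING, 4 rose at 6 weeks, 14 at 22 weeks on AL and 10 on DR, and 0 fell in these 3 comparisons, where 1.71%, 12.0% and 13.0% of all tested genes were called. Without replicate 016 the DR count was 7 of 27, with 10.3% of all tested genes called. Irf7, the factor that amplifies interferon, had a mean normalized count of 24.6 ± 12.2 (n = 4) in WT and 148 ± 23.4 (n = 4) in Ercc1Δ/− mice at 22 weeks on AL, a log2 fold change of 2.60 (SE 0.33, edgeR adjusted p = 4.66e-05). Its values on DR were 14.5 ± 10.5 (n = 5) and 67.9 ± 37.8 (n = 5), a log2 fold change of 2.22 (SE 0.37). Irf9, part of the factor that answers interferon, was 0.89 (SE 0.13) and 0.76 (SE 0.17) higher on AL and DR, and Usp18, which restrains interferon signalling, 2.63 (SE 0.41) and 2.52 (SE 0.42). Isg15, Ifit1 and Ifit3 were also among the 14 on AL, and Isg15, Rsad2 and Mx2 among the 10 on DR. Ifnb1 and Ifna4, which encode interferons, had 0 counts in the 28 samples, which allows up to 0.0289 CPM over them. Tbk1 and Irf3 act after STING in the sensing line. At 22 weeks on AL the mean of Tbk1 was 163 ± 10.5 in Ercc1Δ/− and 156 ± 18.4 in WT mice. That of Irf3 was 315 ± 45.3 and 293.5 ± 15.7 (n = 4 each). Which sensor or signal the rises in this list follow was not tested.

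In Ercc1Δ/− mice on DR, compared with AL, 1.64% of all tested genes were called. Irf8 (-2.14, SE 0.42, edgeR adjusted p = 0.0084) and Ifnar2 (-0.60, SE 0.16, adjusted p = 0.0467) of the interferon and NF-kB axis fell there. So did Pld3 (-0.49, SE 0.10, adjusted p = 0.0084), a lysosomal exonuclease, of the 17 tested nucleases and editing enzymes. Of these 17, 4 rose and 0 fell at 22 weeks on AL, namely Apobec1 (1.44, SE 0.23), Pld4 (1.48, SE 0.28), Rnase4 (0.75, SE 0.15) and the lysosomal Dnase2a (0.79, SE 0.19). On DR Apobec1 (1.55, SE 0.30) and Rnase4 (0.45, SE 0.10) rose, and 2 of 17 is near the 13.0% of all tested genes. Of 10 tested genes that import or break down cyclic dinucleotides, the channel subunit Lrrc8d (1.15, SE 0.29) rose on AL and the receptor channel P2rx7 (0.66, SE 0.21) on DR, near the 12.0% and 13.0% of all tested genes. Without replicate 016, P2rx7 (0.61, edgeR adjusted p = 0.0832) and the fall of Ifnar2 with DR (-0.55, adjusted p = 0.0774) no longer passed. The transporter Abcc1 fell with age in Ercc1Δ/− mice (-0.40, SE 0.11), where 4.66% of all tested genes were called.

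**Figure D5:**
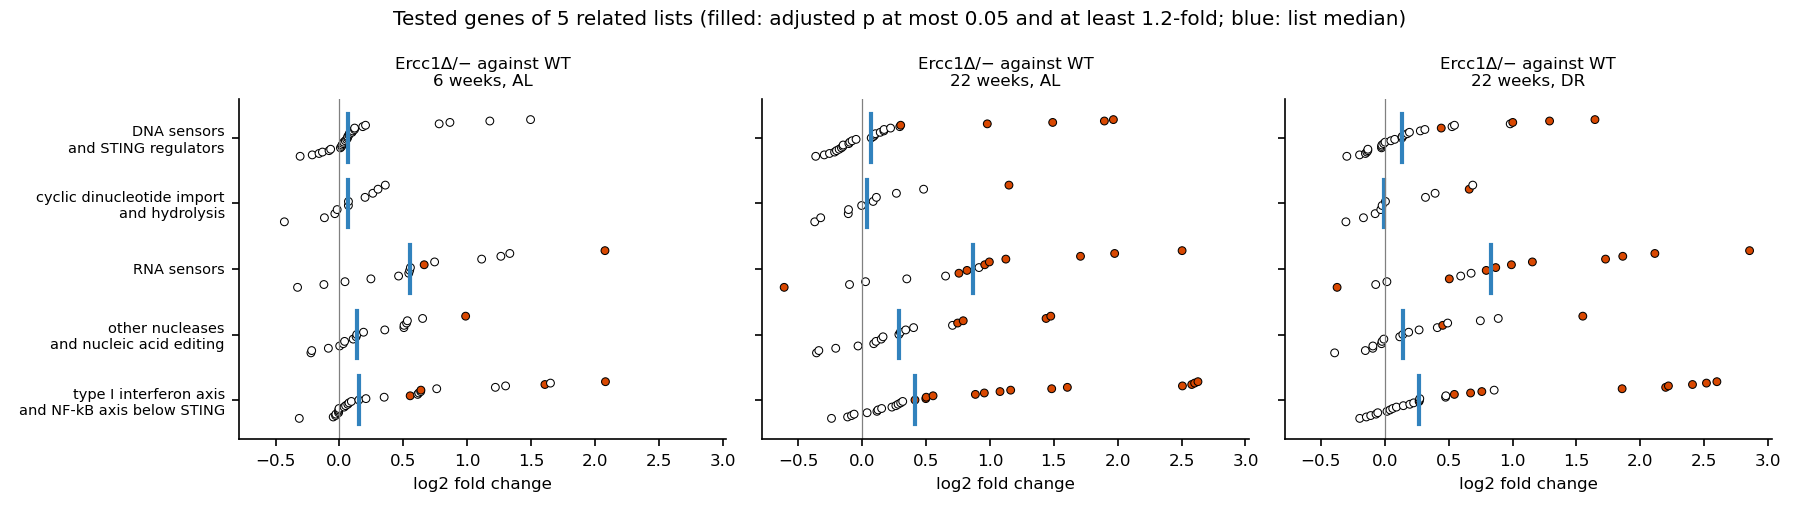
The log2 fold change between Ercc1Δ/− and WT mice for every tested gene of the 5 lists, with filled points for genes that passed the test and a blue bar at the median of each list. RNA sensors have the highest medians (0.55 at 6 weeks, 0.87 on AL and 0.83 on DR at 22 weeks).

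Markers of other cells moved with genotype too. Of 15 tested macrophage markers, 11 rose and 1 fell at 22 weeks on AL and 9 rose on DR (9 also without replicate 016), beside 12.0% and 13.0% called of all tested genes. The summed level of all 16 was 1890.0 to 2532 in AL-fed WT and 3238 to 5717 in AL-fed Ercc1Δ/− mice. On DR it was 1563 to 2299 in WT mice, 2651 to 2932 in 4 Ercc1Δ/− mice and 6066 in replicate 016, and none of the 16 was at 0 in a group. With DR, 6 macrophage markers fell in Ercc1Δ/− mice (8 without replicate 016; 1.64% of all tested genes were called) and 1 in WT mice (1.3%). All 6 pan-leukocyte markers rose on AL and 5 on DR, 3 of them without replicate 016. Smooth muscle markers fell, 8 of 10 on AL and 9 of 10 on DR. Of 8 endothelial markers 4 rose on DR (2 without replicate 016) and 0 on AL, and of 8 fibroblast markers 3 fell on AL, and 1 rose and 2 fell on DR. None of the 8 fat markers was called between genotypes, and 1 of 6 tested cardiac markers was on each diet. Of 8 tested proliferation markers 2 rose on each diet, and of 2 tested dendritic cell and monocyte markers 1 rose on AL. Counts this small in the fibroblast, cardiac, proliferation and dendritic lists are not read as results. Where any were called, their shares lay above the 12.0% and 13.0% of all tested genes. Without replicate 016 the fibroblast share on DR was 12.5%, beside 10.3% of all tested genes. None of the 10 lymphocyte and 6 neutrophil markers passed the filter on low counts, and the neutrophil marker Ly6g was at 0 in every group. In bulk tissue, fewer cells of a type and less RNA per cell cannot be told apart. The same holds for more cells and more RNA per cell, in these markers and in the gene lists above. How the genes of those lists relate to the macrophage markers was not tested.

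Within groups, no relation between the 9 measured genes of the set and the macrophage markers passed the test. Over 28 samples, with each group centred on its mean, Pearson's r with the macrophage level was 0.11 for Samhd1 (rho 0.15), 0.041 for Adar (rho 0.096) and 0.17 for Sting1 (rho 0.27). The permutation p adjusted over 9 genes was 0.805, 0.985 and 0.713 for r, and 0.681 for each rho. The lowest adjusted permutation p of the 9 was 0.512, for Rnaseh2b (r = -0.31, rho = -0.37). The 2 samples farthest from the median macrophage level of all samples were replicates 005 and 004, both AL-fed Ercc1Δ/− mice of 22 weeks. Without them r was 0.10 for Samhd1, 0.073 for Adar and 0.19 for Sting1. Replicate 016 of the DR-fed Ercc1Δ/− mice (5.57 log2 CPM), the highest of its group, was kept in all these values. Between groups, Samhd1 and the macrophage level were both higher in Ercc1Δ/− than in WT mice at 22 weeks. At 6 weeks the macrophage level was 4.62 ± 0.449 log2 CPM in Ercc1Δ/− and 3.84 ± 0.152 in WT mice. Samhd1 was 421 ± 64.1 and 432 ± 82.5 normalized counts there (n = 5 each). From AL to DR in Ercc1Δ/− mice the level went from 5.58 ± 0.392 (n = 4) to 4.91 ± 0.396 (n = 5). Samhd1 went from 553 ± 76.3 to 668 ± 82.6. The part of cell composition in the Samhd1 difference was not tested beyond these values.

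The tested genes whose log2 CPM followed Samhd1 most closely over the 28 samples were Slc43a3 (r = 0.91), the metallothionein Mt2 (r = 0.89) and Pals2 (r = 0.87), where the median r of all tested genes was 0.0011. Those nearest to Adar were the interferon-inducible GTPase Irgm1 (r = 0.83), the RNA polymerase subunit Polr2a (r = 0.80) and Sncg (r = 0.79). The points share libraries and groups, so these values are descriptions.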

How the data were processed

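RNA of the aortic arch was sequenced in 29 mice. Per the study's methods the authors aligned reads with STAR 2.7.10a to mm39, removed duplicates by unique molecular identifiers (UMI-tools 1.1.2) and counted reads over whole gene bodies with HTSeq 2.0.2. They deposited raw counts per gene, with 5 further lines for unassigned reads (12.6% to 18.7% of reads in the 28 samples), which were kept out of totals and tests. Symbols and positions are from GENCODE M39 (GRCm39), later than the study's annotation.

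Genes over 10 counts in over 10 samples were tested with edgeR 4.0.16 in R 4.3.3 (quasi-likelihood, robust, TMM), with group and sex in the model. One fit held the AL-fed samples (genotype, age) and another those of 22 weeks (diet, genotype on DR). A gene was called, and is said to have risen or fallen, when its p, adjusted by Benjamini and Hochberg over all tested genes, was 0.05 or less and the change 1.2-fold or more, interactions without the fold. Intervals of fold changes are ± 1.96 SE. Normalized counts of single genes were also compared by exact permutation (two-sided). Correlations used log2 CPM and 100000 permutations within groups. Alternatives were DESeq2 1.42.0, RLE scaling, no filter, sample 003 added, no sex term, other sets of samples in the fit, thinned counts and leaving out each sample. The fits were tested on simulated data.

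The members and lists were chosen with earlier results of these data known. Named are all 10 members, at most 6 called genes with the smallest p per list and comparison, and the 3 genes most alike to each called member.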

Additional observations from a re-analysis of the deposited data

Results flagged for a closer look

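In 5 of 54 sets of 4 or 5 mice (9 measured genes in 6 groups), 1 mouse lay farther from the others than Dixon's 95% limit allows, and chance flags about 1 in 20 sets. Cgas was 20.0 in replicate 005 of the AL-fed Ercc1Δ/− mice of 22 weeks, from 19 raw counts, where the other mice had 7.46 to 8.37. Tbk1 was 184 in replicate 020 of the AL-fed WT mice of 22 weeks (others 145 to 149) and 212 in replicate 014 of the DR-fed Ercc1Δ/− mice (others 160.0 to 175), the library with the fewest counts. Irf3 was 382 in replicate 013 of the AL-fed Ercc1Δ/− mice of 22 weeks (others 285 to 301), and Rnaseh2b was 32.5 in replicate 004 of the same group (others 46.2 to 47.4). Samhd1, Adar and Sting1 had no such mouse. The cause of these values was not tested.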

How the results depend on the processing

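The count of called genes among the 8 was the same in 78 of 79 pairs of a comparison and a setting other than leaving out samples, and thinning to the lowest total took it from 1 to 0 between genotypes at 22 weeks on AL. Leaving out 1 sample gave 0 to 1 there (0 without WT replicate 018 or Ercc1Δ/− replicate 013), 2 on DR each time, 0 to 1 with age in Ercc1Δ/− mice (Adar, 0.43 and adjusted p = 0.0469, without Ercc1Δ/− replicate 015 of 6 weeks), and 0 in the other comparisons. On DR, Samhd1 ran from 0.52 to 0.61 and Adar from 0.39 to 0.50 over the other settings. With sample 003 added, the exact permutation p of Adar between genotypes on AL was 0.0238 in place of 0.0571. Of 632 log2 fold changes of the 8 genes under other settings, 21 changed sign, none of which had a main value over 0.24. Among the results printed above these were Adar in the interactions with age (0.020, and -0.017 without the filter) and diet (0.11, and -0.046 thinned) and Sting1 between genotypes on DR (0.24, and -0.12 thinned). Leaving out samples, Samhd1 between genotypes at 6 weeks ran from -0.11 to 0.066, its interaction with diet from -0.10 to 0.081, and the interaction of Adar with age from -0.060 to 0.10. The relation to the macrophage level changed sign for Irf3 (0.10) and Rnaseh2c (0.12) without the 2 farthest samples, and for Samhd1 (-0.12) with pan-leukocyte markers. The cause of these changes was not tested.

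Over all genes, settings other than leaving out samples called 121 to 378 genes between genotypes at 6 weeks (main 211), 743 to 1685 at 22 weeks on AL (1486), 989 to 1755 on DR (1601), 17 to 106 with age in WT (29), 325 to 728 with age in Ercc1Δ/− mice (576), 55 to 310 and 91 to 348 with diet in WT and Ercc1Δ/− mice (161 and 203), and 58 to 197 and 2 to 43 in the interactions with age and diet (104 and 12). Leaving out 1 sample moved such a count by more than 1.5 times in 33 of 100 cases, all of them lower. The lowest counts were 101 at 6 weeks (without WT replicate 009), 934 at 22 weeks on AL (WT 018), 8 with age in WT (WT 025), 322 with age in Ercc1Δ/− mice (Ercc1Δ/− 004), 46 with diet in WT (WT 018), 78 with diet in Ercc1Δ/− mice (Ercc1Δ/− 026), and 55 (WT 018) and 2 (Ercc1Δ/− 004) in the interactions, while the DR genotype count stayed at 1171 or more. The counts of lists without replicate 016 of the DR-fed Ercc1Δ/− mice were chosen after seeing the data. Mice carry no number shared between groups. No paired analysis was possible because each mouse gave 1 library. Depth limits Cgas and Sting1 most. Replicates are separate mice.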

Other observations

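Sample 003, the AL-fed WT mouse of 22 weeks that was left out, had 400410 counts on genes. It held 7 raw counts of Sting1 (69.0 normalized), 2 of Cgas, 41 of Samhd1 (404), 10 of Adar (98.6), 12 of Tbk1 (118), 36 of Irf3 (355) and 0 of Trex1. Its Sting1 value lies above and its Adar value below those of all 28 other mice, and its Samhd1 value lies within the WT range. Zbp1, a sensor of left-handed nucleic acid that did not pass the filter on low counts and was picked after its values were seen, had a mean normalized count of 41.7 ± 16.3 (n = 4) in AL-fed Ercc1Δ/− mice of 22 weeks and 9.21 ± 8.15 (n = 4) in AL-fed WT mice. On DR it was 17.8 ± 21.2 (n = 5) in Ercc1Δ/− mice and 2.95 ± 2.45 (n = 5) in WT mice.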
